A study of Mus musculus with 97 samples.

Results

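The genes described here encode the conjugation enzymes of the mouse colon: the glutathione transferases, the UDP-glucuronosyltransferases and the cytosolic sulfotransferases. They were chosen by name, as genes whose symbol begins with Gst followed by a class letter and a number, with Mgst, with Ugt1a, Ugt2b or Ugt3a, or with Sult1 to Sult6 and a class letter, without pseudogene names. A level of at least 1 TPM (a share of a library's reads, corrected for transcript length) in at least 4 of 97 libraries was also required. In all, 49 symbols matched and 45 met the level, among 17083 genes that met it and 20457 in the table. The 45 were 22 cytosolic glutathione transferases, 3 microsomal glutathione transferases, 12 glucuronosyltransferases and 8 sulfotransferases. The rule uses names and levels alone.

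The libraries were made from whole colon of wild-type C57BL6/J mice aged 8 to 12 weeks and housed under SPF conditions. Mice received neomycin, vancomycin, ampicillin, metronidazole or all 4 together (the mix), 2.5 mg in 100 µl of PBS, 2 times a day for 3 days with a last dose on day 4, and tissue was collected 4 h after that dose. The labels do not say whether the 2.5 mg of the mix is per drug or in total. Each treatment was given by gavage (PO), by intraperitoneal injection (IP) and by intravenous injection (IV), and the controls received PBS alone by the same 3 routes. This gave 18 groups. PBS-IP, Vancomycin-IP, Metronidazole-IP and Metronidazole-IV had 4 libraries each, PBS-IV, Neomycin-IV and Vancomycin-IV had 5 each, and the other 11 groups had 6 each. The labels do not state that each library came from its own mouse, so the p-values measure the spread between these libraries.

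Conjugation enzymes join a polar group to reactive or fat-soluble compounds: glutathione transferases add glutathione, glucuronosyltransferases add glucuronic acid from UDP-glucuronate, and sulfotransferases add sulfate from 3'-phosphoadenosine 5'-phosphosulfate. The products are exported by membrane pumps. In the gut these enzymes act in the absorptive lining on compounds from food, drugs, bile and bacterial metabolism, and bacteria in the lumen can remove glucuronide and sulfate groups again. Many of the genes are known targets of the transcription factor Nrf2, which binds the antioxidant response element, and of the aryl hydrocarbon receptor.

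The glutathione transferases were led by Mgst3, a membrane enzyme that reduces lipid peroxides, with a median of 367 TPM over the 97 libraries (31.4 to 800.4). Gsto1, an omega-class enzyme with thioltransferase activity, followed at 257 TPM (27.6 to 649.6), and Gstp1 of the pi class had 225 TPM (67.2 to 806.8). Mgst2, which can make leukotriene C4, had 129.0 TPM (8.30 to 275.1), Gstp2 had 110.2 TPM (36.1 to 430.1) and Mgst1, found in the endoplasmic reticulum and outer mitochondrial membrane, had 68.3 TPM (4.34 to 263.1). Gstm1, described below, had a median of 102.9 TPM, between Gstp2 and Mgst1. The ranges of these genes overlap, and differences between genes within the same libraries were not tested. Summed over the family, cytosolic glutathione transferases had a median of 1139 TPM (391 to 2170) and microsomal ones 582 TPM (50.3 to 1265).

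Among the glucuronosyltransferases, Ugt2b34 was highest with a median of 209.8 TPM (9.89 to 508.2). Ugt1a6a, which acts on simple phenols, had 46.9 TPM (3.79 to 485.2) and Ugt1a1, the bilirubin-conjugating enzyme, had 33.1 TPM (0.474 to 800.3). Relative to their lowest library, Ugt1a1 and Ugt1a6a spanned a wider range than the other genes named in this and the preceding paragraph. The sulfotransferases were led by Sult1a1, a phenol sulfotransferase, with 174.7 TPM (11.8 to 320.1), Sult1d1, which in mice acts on catecholamines, with 133.7 TPM (10.01 to 404.3), and Sult1b1 with 105.9 TPM (10.8 to 295.1). Summed glucuronosyltransferases had a median of 435 TPM (32.3 to 2024) and summed sulfotransferases 523 TPM (113 to 908).

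**Figure D1:**
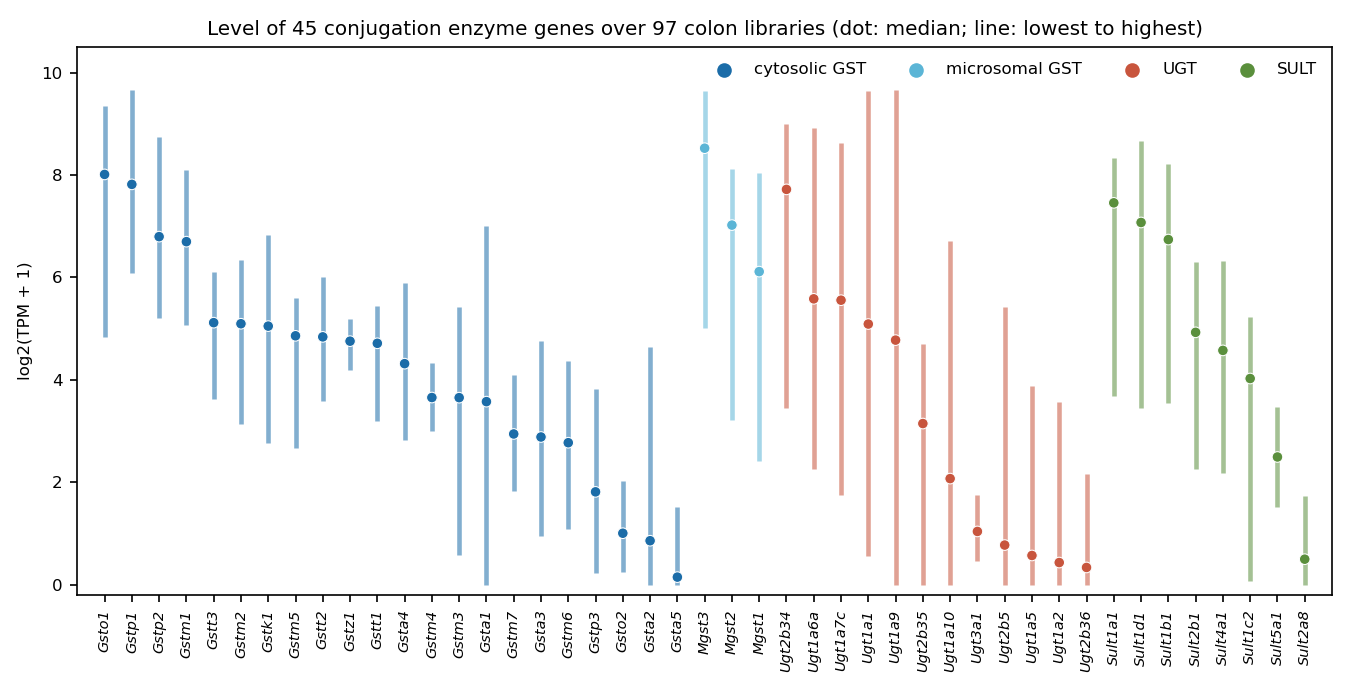
The level of each of the 45 genes over 97 libraries on the log2(TPM + 1) scale, with a dot at the median and a line from the lowest to the highest library, coloured by family. Mgst3, Gsto1 and Gstp1 have the highest medians (367, 257 and 225 TPM), and Ugt1a9 and Ugt1a1 have the longest lines.

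Of the 45 genes, 10 had a median of 100 TPM or more, 19 lay between 10 and 100, 9 between 1 and 10, and 7 below 1. A level of at least 1 TPM was reached in every library by 27 genes, and 11 were listed at 0 in at least 1 library. Just inside the level filter were Gsta5, at 1 TPM or more in 4 libraries (highest 1.86 TPM), and Sult2a8, in 5 (highest 2.31 TPM). Just outside it were Sult6b1, at 1 TPM or more in 2 libraries (highest 1.14 TPM), and Ugt2b1, in 1 (1.16 TPM), while Gstt4 (highest 0.307 TPM) and Sult1c1 (highest 0.327 TPM) never reached it. Libraries of the same group differed more in these genes than in most: the median within-group SD on the log2(TPM + 1) scale was 0.930 over the 45 and 0.438 over all tested genes. Ugt1a9 (2.87) and Ugt1a1 (2.09) varied most, and Gstz1 (0.170) and Gstm4 (0.245) least.

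Many of the genes share a chromosome: 7 Ugt1a genes with Gsta3 and Mgst3 on chromosome 1, 7 Gstm genes with Mgst2 on chromosome 3, 6 Ugt2b and Sult1 genes on chromosome 5, and 5 Gsto and Gstp genes on chromosome 19. Close copies limit how reads can be assigned. Of the 45, 14 shared at least 10% of their 31-base words with others of the 45, and 19 shared none. Ugt1a6a shared 95.0% of its words with other members, Ugt1a9 66.0%, Gsta1 62.4%, Ugt1a1 58.5%, Gstm3 22.4% and Gstm1 16.2%. Gstp1 shared 57.8% with Gstp2. Levels of these and the rest of the 14 genes are uncertain one by one. Sums are given below for the Ugt1a genes, for Gstp1 with Gstp2 and for Gsta1 with Gsta2, and Gstm1 and Gstm3 were tested without one.

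Promoters are shown for 5 genes described below, from RefSeq (GRCm38.p6), 250 bases before to 50 bases after the annotated start, 5' to 3' on the gene's strand. Each of the 5 holds a match to a searched motif. Gstz1, Gstm3 and Gsto2, also called below, had windows without a match and are not shown. Gsta3 (chr1:21240335-21240634, plus strand) and Mgst1 (chr6:138140277-138140576, plus strand) were lower after ampicillin and vancomycin, Gstm1 (chr3:108017924-108018223, minus strand) was lower after ampicillin, vancomycin and the mix, and Ugt1a1 (chr1:88211709-88212008, plus strand) and Ugt1a9 (chr1:88070529-88070828, plus strand) belong to 1 locus, where Ugt1a9 was lower after ampicillin and the mix and Ugt1a1 was not called. Capitals mark every match to 4 motifs searched on both strands: the antioxidant response element TGACNNNGC, the core of the xenobiotic response element GCGTG, the D-box TTATGTAA or TTACGTAA bound by Dbp and its relatives, and the HNF1 hexamer GTTAAT.
Gsta3: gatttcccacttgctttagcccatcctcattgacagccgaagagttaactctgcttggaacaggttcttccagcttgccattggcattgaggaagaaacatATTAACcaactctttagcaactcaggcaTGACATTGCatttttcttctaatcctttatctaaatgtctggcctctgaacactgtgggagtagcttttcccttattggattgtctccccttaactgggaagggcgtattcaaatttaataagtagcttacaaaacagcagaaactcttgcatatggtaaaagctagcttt
Mgst1: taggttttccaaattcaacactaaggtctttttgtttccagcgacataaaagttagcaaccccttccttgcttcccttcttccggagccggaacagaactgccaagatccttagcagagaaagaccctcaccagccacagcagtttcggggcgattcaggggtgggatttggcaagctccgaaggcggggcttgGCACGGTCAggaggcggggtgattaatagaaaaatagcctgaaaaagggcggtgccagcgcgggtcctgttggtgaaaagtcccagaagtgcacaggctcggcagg
Gstm1: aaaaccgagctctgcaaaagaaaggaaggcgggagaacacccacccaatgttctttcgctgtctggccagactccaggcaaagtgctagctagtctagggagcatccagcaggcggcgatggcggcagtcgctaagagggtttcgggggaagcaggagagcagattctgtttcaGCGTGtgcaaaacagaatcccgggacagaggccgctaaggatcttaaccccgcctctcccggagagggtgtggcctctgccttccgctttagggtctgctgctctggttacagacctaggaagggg
Ugt1a1: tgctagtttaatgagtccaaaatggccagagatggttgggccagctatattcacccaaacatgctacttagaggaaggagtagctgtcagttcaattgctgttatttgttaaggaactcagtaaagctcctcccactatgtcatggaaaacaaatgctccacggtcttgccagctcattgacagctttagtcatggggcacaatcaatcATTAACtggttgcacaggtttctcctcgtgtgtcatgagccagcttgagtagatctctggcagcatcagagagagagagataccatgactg
Ugt1a9: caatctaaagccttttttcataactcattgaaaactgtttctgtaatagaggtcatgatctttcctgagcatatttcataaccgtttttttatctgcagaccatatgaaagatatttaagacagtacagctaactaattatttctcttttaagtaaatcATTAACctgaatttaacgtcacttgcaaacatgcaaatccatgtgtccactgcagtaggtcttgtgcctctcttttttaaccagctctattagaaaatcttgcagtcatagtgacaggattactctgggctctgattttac

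The Gsta3 window holds an antioxidant response element that starts 121 bases before the gene's start and an HNF1 hexamer 149 bases before it, on the opposite strand. Mgst1 holds an antioxidant response element on the opposite strand, 56 bases before the start, and Gstm1 a GCGTG 76 bases before it. Ugt1a1 and Ugt1a9 hold the HNF1 hexamer on the opposite strand, 41 and 91 bases before their starts. Windows were found for 41 of the 45 genes, and Gsta4, Gsta5, Gstt2 and Sult4a1 had none. The antioxidant response element was in 4 of 41 (9.8%, against 16.5% of 12274 tested genes with a window), in Gsta3, Gstm5, Gstm7 and Mgst1. GCGTG was in 11 (26.8%, against 51.9%). The HNF1 hexamer was in 8 (19.5%, against 6.0%), of which 4 were Ugt1a genes, and no window held a D-box (0.8% and 0.2% of tested genes for its TTATGTAA and TTACGTAA forms). A match of letters is a description of the window and no measure of binding.

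Libraries differed in 2 ways that the groups do not define, and both moved with these genes. A score for smooth muscle, averaging log2(TPM + 1) over 18 genes that include Acta2 and Myh11, ran from 7.54 to 11.8, and the 18 genes summed to between 5969 and 114000 TPM with none of the libraries at 0. The posterior Hox score, the same mean over Hoxb13 and Hoxd10 to Hoxd13, which mark the distal end of the colon, ran from 0.902 to 5.96. Its largest gap between neighbouring libraries was small, 0.356 (from 2.892 to 3.248). The score was split in this gap, at 3, a cut chosen after the data were seen, with 48 libraries below 3 and 49 at or above it. Those below 3 were 6 of 15 with PBS, 8 of 18 with ampicillin, 6 of 14 with metronidazole, 6 of 17 with neomycin, 7 of 15 with vancomycin and 15 of 18 with the mix, including all 6 of Mix-PO. In 12 libraries (2 PBS-IP, 2 PBS-IV, 3 Vancomycin-IP, 2 Vancomycin-IV and 3 Vancomycin-PO) the values stood after the rest of the table and out of its order, and results are given without them where this changes a call. Liver and fat markers were low, at most 105.3 and 368.5 TPM summed per library, small intestine and B cell markers reached 595.8 and 2337 TPM, and goblet cell and surface colonocyte markers were high, with median sums of 8941 and 19210 TPM.

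The first question was which genes each antibiotic moved against PBS given by the same route. In 15 such comparisons, limma with Benjamini-Hochberg adjustment over 17083 genes called 7 of 675 pairs of gene and comparison at an adjusted p under 0.05, and all 7 were lower in Vancomycin-IP than in PBS-IP. All differences below are on the log2(TPM + 1) scale, with the standard error in brackets, and this scale understates changes of genes with low levels. Libraries are named by group and replicate number.

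In Vancomycin-IP the 7 called genes were the glutathione transferases Mgst1, Gstt2, Gstm3 and Gsta1, the glucuronosyltransferase Ugt2b34 and the sulfotransferases Sult2b1 and Sult1d1. They were 7 of 45 (0 higher, 7 lower), where 3.08% of all tested genes were lower and 2726 of the 17083 were higher. Mgst1 had 236.5, 255.6, 61.9 and 263 TPM in the 4 PBS-IP libraries and 31.2, 10.04, 29.1 and 96.8 TPM in the 4 Vancomycin-IP libraries. The groups overlapped in 1 pair, since PBS-IP 3 lay below Vancomycin-IP 4, and the difference was -2.48 (0.796), adjusted p = 0.0272. Ugt2b34 had 375.8, 395.7, 276 and 309.8 TPM with PBS and 70.6, 29.4, 46.3 and 145.1 TPM with vancomycin, with no overlap, a difference of -2.44 (0.870), adjusted p = 0.0407. Sult2b1, which makes cholesterol sulfate, had 41.2, 35.6, 34.2 and 44.0 TPM with PBS and 14.95, 6.13, 8.83 and 21.7 TPM with vancomycin, again without overlap, and differed by -1.65 (0.598), adjusted p = 0.0437.

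Sult1d1 separated the same groups, with 190.6, 151.7, 208.8 and 133.7 TPM in PBS-IP and 39.8, 35.1, 29.0 and 47.8 TPM in Vancomycin-IP. Every vancomycin library lay below every PBS library, and the difference was -2.15 (0.783), adjusted p = 0.0445. Gstt2, a theta-class glutathione transferase, had 49.7, 50.6, 32.4 and 52.6 TPM with PBS and 21.1, 17.8, 26.6 and 33.5 TPM with vancomycin. Its groups overlapped, because PBS-IP 3 was below Vancomycin-IP 4, and it differed by -0.89 (0.318), adjusted p = 0.0404. Gstm3 differed by -2.14 (0.793), adjusted p = 0.0469, with 28.04, 37.7, 26.4 and 36.2 TPM in PBS-IP and 7.87, 0.878, 8.08 and 19.1 TPM in Vancomycin-IP. Gsta1, with 13, 10, 27.5 and 16.5 TPM against 2.04, 0.515, 1 and 9.75 TPM, differed by -2.40 (0.881), adjusted p = 0.0452. The groups of both genes did not overlap. Gsta1 shares words with Gsta2, and their sum differed by -2.39 (0.897), adjusted p = 0.0492.

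In the same comparison 16 of 18 smooth muscle genes were higher, and the muscle score was 11.25 ± 0.336 (SD, n = 4) in Vancomycin-IP and 9.04 ± 0.427 (SD, n = 4) in PBS-IP. Summed muscle genes had 60390 to 102500 TPM and 12540 to 21950 TPM, without overlap, and 3 of 10 goblet cell genes were lower (Tff3 -3.17, Clca1 -3.35, Zg16 -3.85). In whole tissue, fewer cells of a type and less RNA per cell cannot be told apart. With both scores as covariates none of the 7 was called. The 12 libraries that stood apart in the table include 3 of the 4 Vancomycin-IP and 2 of the 4 PBS-IP libraries. A fit without them leaves too few libraries of these groups to decide whether the calls hold. With all other libraries kept, none of the 7 was called without any 1 of PBS-IP 1, 2 or 4 or Vancomycin-IP 1, 2 or 3. In the same way 3 genes were called without PBS-IP 3 and 14 without Vancomycin-IP 4.

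The other 14 comparisons called none of the 45 in limma. The share of all tested genes called there was 0.0702%, 0.492% and 0.0820% for ampicillin by PO, IP and IV, 0% for metronidazole by each route and for Mix-IV, 0.0176%, 0.603% and 0.544% for neomycin, 0.176% and 0.258% for Vancomycin-PO and Vancomycin-IV, and 0.252% and 0.275% for Mix-PO and Mix-IP. At an unadjusted p under 0.05 stood 9 of 45 in Ampicillin-IP (9.86% of all tested genes), 2 in Ampicillin-IV (6.29%), 4 in Vancomycin-PO (6.05%), 4 in Vancomycin-IV (13.6%), 6 in Mix-PO (10.9%), 12 in Mix-IP (14.6%) and 4 in Mix-IV (5.60%). The counts were 0 for metronidazole by each route (3.25%, 7.15% and 1.48% of all tested genes for PO, IP and IV), 0 in Neomycin-PO (5.35%), 1 in Neomycin-IP (5.81%) and 2 in Neomycin-IV (7.24%).

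After oral ampicillin 42 of 45 differences were below 0, with a median of -0.72 against 0.08 over all tested genes, and 16 of 45 had an unadjusted p under 0.05, where 15.9% of all tested genes did. Gstt2 came closest to the threshold: it had 17.1 to 63.3 TPM (median 40.1) in PBS-PO and 11 to 25.3 TPM (median 18.2) in Ampicillin-PO. The ranges overlapped because of PBS-PO 2, at 17.1 TPM, and the difference was -1.12 (0.259), adjusted p = 0.0563. It was called, as the only member, without Ampicillin-PO 1, Ampicillin-PO 2 or PBS-PO 2, each left out alone, and without the 12 libraries. The smooth muscle score was 10.85 ± 0.815 (SD, n = 6) in Ampicillin-PO and 9.66 ± 0.914 (SD, n = 6) in PBS-PO, and with both scores as covariates 1 of the 45 was called, lower in Ampicillin-PO.

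Gstt2 also had the smallest adjusted p of the 45 in Ampicillin-IP (-0.97, 0.0978), Vancomycin-PO (-0.87, 0.198) and Mix-PO (-0.78, 0.178). In Mix-IP it was Gstz1 (-0.43, adjusted p = 0.0728), with 1 gene called without Mix-IP 1 and 4 called without Mix-IP 6 or PBS-IP 3. Ugt3a1 was the closest in Vancomycin-IV (-0.49, adjusted p = 0.142), Mix-IV (-0.51, 0.518) and Neomycin-IV (-0.47, 0.378). It had 1.103 to 2.17 TPM in PBS-IV, 0.465 to 1.40 in Vancomycin-IV, 0.637 to 0.929 in Mix-IV and 0.645 to 1.36 in Neomycin-IV, so that the Mix-IV libraries all lay below the PBS-IV libraries. In the comparisons farthest from the threshold the smallest adjusted p was 0.528 for Ugt1a9 in Ampicillin-IV (-4.46), 0.579 for Sult2b1 in Metronidazole-IP (-1.08), 0.731 for Ugt1a10 in Neomycin-IP (-2.56) and 0.970 for Sult1c2 in Neomycin-PO (-1.16). In Metronidazole-PO and Metronidazole-IV several genes shared the smallest value, 0.9997 and 0.9999.

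The second question was what each antibiotic did on average over the 3 routes, each route set against its own PBS group and weighted equally. The 15 PBS libraries are shared by all 5 mean effects, which are therefore not independent of each other. Ampicillin lowered 11 of 45 genes and raised none (background 2.75% lower, 5.13% higher), vancomycin 15 and none (7.40% lower, 18.6% higher) and the mix 7 and none (3.27% lower, 4.69% higher). Metronidazole and neomycin moved none (0.398% and 2.34% called in either direction in limma), with 0 and 1 of 45 at an unadjusted p under 0.05 (9.48% and 11.7% of all tested genes). The median difference over the 45 was -0.31 for ampicillin, -0.68 for vancomycin, -0.20 for the mix, -0.14 for metronidazole and -0.11 for neomycin, where the medians over all tested genes lay between 0.02 and 0.07.

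**Figure D2:**
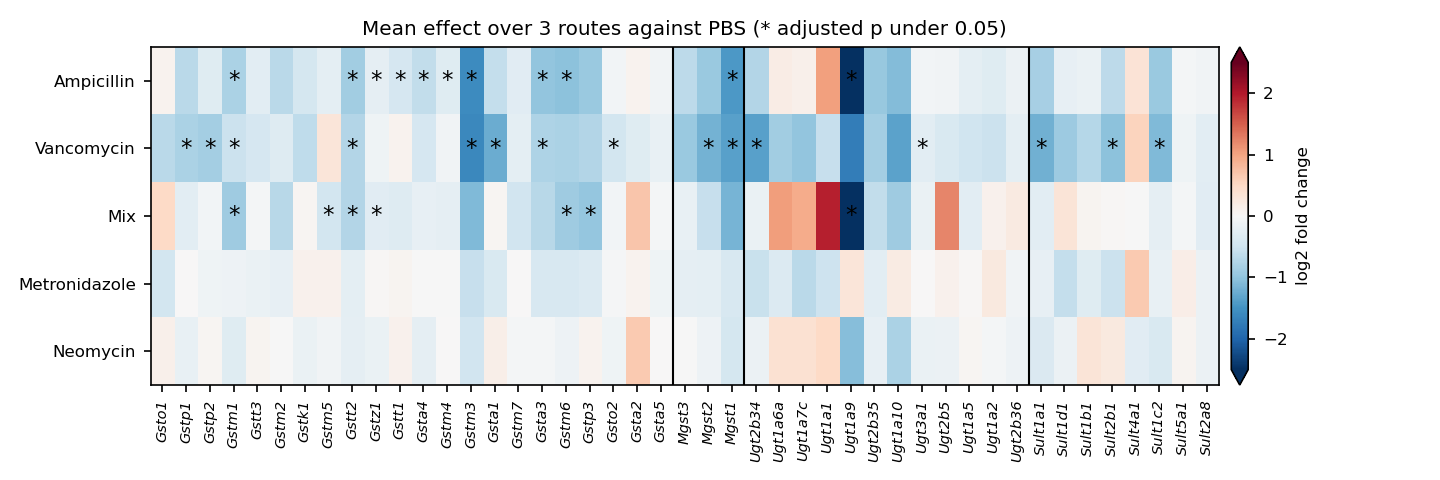
The mean effect of each treatment against PBS over 3 routes (rows) on each of the 45 genes (columns), as log2 fold change on the log2(TPM + 1) scale, blue for lower and red for higher, with a star where the adjusted p is under 0.05. Stars stand in the ampicillin (11), vancomycin (15) and mix (7) rows, and all mark lower levels.

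Gstt2 fell after ampicillin, vancomycin and the mix. With PBS it had 15.5 to 63.3 TPM (median 39.9), with ampicillin 11 to 39.7 TPM (median 21.1), with vancomycin 12.6 to 39.4 TPM (median 21.1) and with the mix 14.7 to 41.0 TPM (median 23.0). All 18 ampicillin and all 15 vancomycin libraries lay below the PBS median, as did 17 of 18 with the mix, although the lowest PBS library was within each range. The difference was -0.86 (0.158), adjusted p = 0.000139, for ampicillin, -0.74 (0.166), adjusted p = 0.00122, for vancomycin and -0.73 (0.158), adjusted p = 0.00171, for the mix.

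With metronidazole Gstt2 had 19.4 to 56.1 TPM (median 34.1, difference -0.23, adjusted p = 0.589) and with neomycin 19.7 to 44.4 TPM (median 36.3, difference -0.23, adjusted p = 0.713). These calls held without any single library and without the 12 libraries, and with both scores as covariates Gstt2 differed by -0.70 for ampicillin, -0.44 for vancomycin and -0.56 for the mix, all called. Among libraries with a Hox score below 3 alone the ampicillin difference was -0.84, adjusted p = 0.0463, and among those at or above 3 it was -0.84, adjusted p = 0.0176. For vancomycin these values were -0.73, adjusted p = 0.0826, and -0.72, adjusted p = 0.0419.

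**Figure D3:**
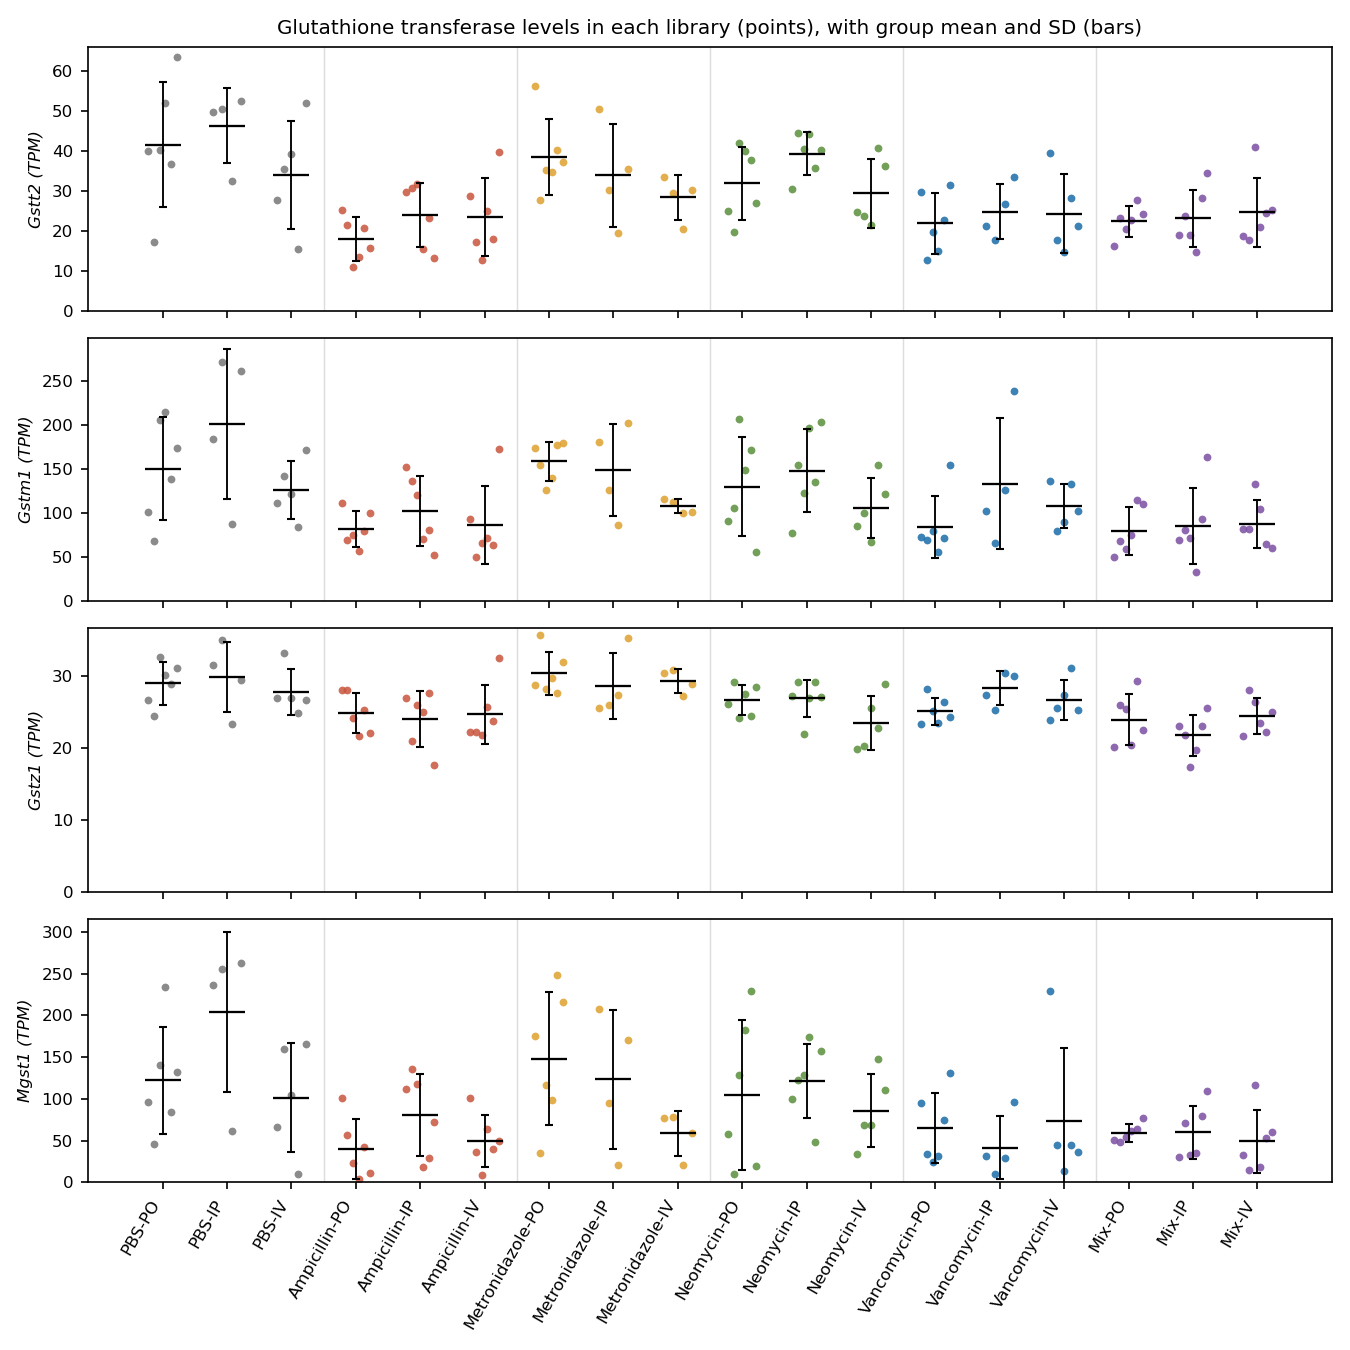
Levels in TPM of Gstt2, Gstm1, Gstz1 and Mgst1 in each library (points) of the 18 groups, with the group mean and SD as bars, coloured by treatment. The ampicillin libraries of Gstt2 lie between 11 and 39.7 TPM and the PBS libraries between 15.5 and 63.3 TPM.

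Ampicillin lowered 9 of 22 cytosolic glutathione transferases, 1 of 3 microsomal ones, 1 of 12 glucuronosyltransferases and no sulfotransferase. Gstm1 of the mu class had 68.0 to 272.5 TPM (median 142) with PBS and 50.03 to 173 TPM (median 77.4) with ampicillin. In 16 of 18 ampicillin libraries it was below the PBS median, and the difference was -0.79 (0.186), adjusted p = 0.00356. Gstm3 had 2.77 to 37.7 TPM (median 25.4) and 0.648 to 14.99 TPM (median 8.60), with all 18 ampicillin libraries below the PBS median, and differed by -1.58 (0.395), adjusted p = 0.00599. Gstm6 had 2.46 to 19.8 TPM (median 8.83) and 1.12 to 11.7 TPM (median 3.19), a difference of -1.03 (0.294), adjusted p = 0.0186.

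Smaller differences were called in genes whose libraries varied little. Gstm4 had 10.1 to 15.2 TPM (median 12.4) with PBS and 7.35 to 13.2 TPM (median 9.92) with ampicillin, and fell by 0.30 (0.0891), adjusted p = 0.0219. Gstz1, which isomerises maleylacetoacetate in tyrosine breakdown, had 23.3 to 34.9 TPM (median 28.9) and 17.6 to 32.5 TPM (median 24.6), with 17 of 18 ampicillin libraries below the PBS median, and fell by 0.23 (0.0634), adjusted p = 0.0149. Gstt1, which conjugates small halogenated compounds, differed by -0.42 (0.138), adjusted p = 0.0433, and Gsta4, which conjugates the lipid peroxidation product 4-hydroxynonenal, by -0.62 (0.206), adjusted p = 0.0467.

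Gsta3, which in mice detoxifies aflatoxin epoxide, had 3.07 to 26.1 TPM (median 8.10) with PBS and 0.937 to 15.7 TPM (median 3.99) with ampicillin. The ranges overlapped widely, 13 of 18 ampicillin libraries were below the PBS median, and the difference was -0.99 (0.278), adjusted p = 0.0158. Mgst1 had 10.6 to 263 TPM (median 132) and 4.34 to 136 TPM (median 46.2), with 17 of 18 below the PBS median, and differed by -1.44 (0.396), adjusted p = 0.0143. Both carry the antioxidant response element letters in the windows shown above. So do Gstm5 (-0.24, adjusted p = 0.301) and Gstm7 (-0.28, adjusted p = 0.360), which were not called after ampicillin. Whether the element had a part in these differences was not tested. Ugt1a9 is described with its locus below.

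Of the 11 ampicillin calls, 8 held without any single library, and Gstm4 was lost without PBS-IP 4. Gstt1 was lost when any 1 of 18 of the 33 libraries was left out, and Gsta4 when any 1 of 19 was. Without the 12 libraries Gstt1, Gstz1, Gsta3, Gstt2 and Gstm1 remained. No smooth muscle gene of 18 was called, the score was 10.2 ± 1.16 (SD, n = 18) with ampicillin and 9.54 ± 0.908 (SD, n = 15) with PBS, and 4 of 10 goblet cell genes were lower (Agr2 -1.82, Spdef -1.08, Spink4 -1.98, Sytl2 -0.65). With both scores as covariates 12 genes were lower, and Gsto1 (0.64) and Ugt1a1 (1.58) were higher.

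Vancomycin lowered 8 of 22 cytosolic and 2 of 3 microsomal glutathione transferases, 2 of 12 glucuronosyltransferases and 3 of 8 sulfotransferases. Gsto2, an omega-class enzyme that reduces dehydroascorbate, had 0.368 to 2.06 TPM (median 1.20) with PBS and 0.190 to 1.26 TPM (median 0.508) with vancomycin. In 13 of 15 vancomycin libraries it was below the PBS median, and the difference was -0.45 (0.123), adjusted p = 0.00629. Gstm3 had 0.499 to 20.8 TPM (median 7.87), with all 15 libraries below the PBS median of 25.4 TPM, and differed by -1.61 (0.415), adjusted p = 0.00413. Mgst1 had 10.04 to 229 TPM (median 35.9), with 14 of 15 below the PBS median of 132 TPM, and differed by -1.36 (0.417), adjusted p = 0.0135.

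Of the 5 mean effects, that of vancomycin was the one with called sulfotransferases. The mean effects on Sult2b1 differed between the 5 treatments (F test, adjusted p = 0.00426), but not with both scores as covariates, where the F test did not call Sult2b1. The mean effects on Sult1a1 and Sult1c2 were not called in the F test without covariates (adjusted p = 0.150 and 0.137). Ampicillin gave -0.82 (adjusted p = 0.195) and -0.92 (adjusted p = 0.127) for these 2 genes. Sult2b1 had 8.23 to 56.5 TPM (median 35.6) with PBS and 5.75 to 49.01 TPM (median 14.95) with vancomycin, 13 of 15 below the PBS median, and differed by -1.02 (0.313), adjusted p = 0.0135. Sult1a1 had 16.6 to 316 TPM (median 201.6) and 11.8 to 275.5 TPM (median 69.1), and differed by -1.20 (0.425), adjusted p = 0.0308, and Sult1c2 differed by -1.11 (0.409), adjusted p = 0.0377. Sult1d1 (-0.91, adjusted p = 0.0857) and Sult1b1 (-0.71, adjusted p = 0.134) were not called.

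Ugt2b34 had 9.89 to 422 TPM (median 271.5) with PBS and 24.9 to 314 TPM (median 82.3) with vancomycin. It was below the PBS median in 14 of 15 vancomycin libraries and differed by -1.36 (0.455), adjusted p = 0.0230. Mgst2 differed by -1.18, Gsta1 by -1.24, Gsta3 by -0.78, Gstp1 by -0.78, Gstp2 by -0.85, Gstm1 by -0.55 and Ugt3a1 by -0.26, with adjusted p between 0.0300 and 0.0408. Gstp1 and Gstp2 summed differed by -0.80, adjusted p = 0.0343, and Gsta1 and Gsta2 summed by -1.26, adjusted p = 0.0387.

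Muscle genes moved with vancomycin too: 17 of 18 were higher over the 3 routes, and the score was 10.6 ± 1.31 (SD, n = 15) against 9.54 ± 0.908 (SD, n = 15) with PBS, while 4 of 10 goblet cell genes were lower (Fcgbp -1.50, Clca1 -1.68, Spdef -1.04, Sytl2 -0.66). With both scores as covariates, and without the 12 libraries, Gstt2 alone of the 15 remained. The 12 include 3 of the 4 Vancomycin-IP libraries, so the second of these fits has less power. The calls of Sult2b1, Gstm3, Mgst1, Gsto2 and Gstt2 held without any single library. The count was 5 without Vancomycin-IP 2 or Vancomycin-IV 3, 6 without PBS-IV 3, 8 without PBS-IV 5, Vancomycin-PO 2 or Vancomycin-PO 3, and 23 without PBS-IV 4.

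The mix lowered 6 of 22 cytosolic glutathione transferases and 1 glucuronosyltransferase, Ugt1a9, and no microsomal glutathione transferase or sulfotransferase. Gstm1 had 32.7 to 164 TPM (median 78.1) with the mix, 17 of 18 libraries below the PBS median of 142 TPM, and differed by -0.89 (0.186), adjusted p = 0.00114. Gstz1 had 17.4 to 29.3 TPM (median 23.0), 17 of 18 below the PBS median of 28.9 TPM, and differed by -0.29 (0.0634), adjusted p = 0.00163. Gstm6 differed by -0.89, Gstm5 by -0.45 and Gstp3 by -0.97, with adjusted p of 0.0447, 0.0395 and 0.0480.

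For Mgst1 the mix gave 15.2 to 117 TPM (median 53.5), with all 18 libraries below the PBS median, and a difference of -1.16 (0.396) that was not called, adjusted p = 0.0525. Since 15 of 18 mix libraries had a Hox score below 3, the fit was repeated with the side of the Hox score as a factor. Gstz1, Gstm1 (-0.58, adjusted p = 0.0161), Gstt2 (-0.51, adjusted p = 0.0253) and Ugt1a9 remained, and Gstm5, Gstm6 and Gstp3 did not. With both scores as covariates instead, all 7 genes called for the mix remained. Among libraries below 3 alone none was called, and Gstt2 differed by -0.55, adjusted p = 0.181. Those at or above 3 could not be fitted, as Mix-PO had none.

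Gstz1, Gstt2, Gstm1 and Ugt1a9 held without any single library, and the first 3 of these held without the 12 libraries. Without any 1 of 14 libraries (Mix-IP 2 and 4, Mix-IV 2 and 5, Mix-PO 1 and 4, PBS-IP 1, 2 and 4, PBS-IV 2 and 5, PBS-PO 3, 4 and 6) the count was 4. It was 11 without Mix-IP 6 or PBS-PO 2 and 12 without PBS-IP 3.

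After metronidazole the genes stayed close to PBS in their medians: Gstm1 had 87.1 to 203 TPM (median 134, difference -0.13) and Gstz1 25.6 to 35.7 TPM (median 28.8, difference 0.03). The smallest adjusted p of the 45 was 0.550, for Sult4a1. After neomycin Gstm1 had 56.0 to 207.5 TPM (median 123, difference -0.29) and Gstz1 19.9 to 29.1 TPM (median 26.9, difference -0.16), and Gstz1 had the smallest adjusted p, 0.214. A p above the threshold does not show that these levels equal those with PBS.

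Whether antibiotics differed from each other was tested directly, a set of tests added after the data were seen. Between the 5 treatments 17 of 45 mean effects differed in an F test, where 30.0% of all tested genes did, and 26 did without Neomycin-PO 2. With both scores as covariates 10 of the 17 kept their call. Ampicillin was lower than metronidazole in 6 genes (background 2.51% lower, 4.51% higher): Gstt1 (-0.50), Gstz1 (-0.26), Gstm4 (-0.30), Gstt2 (-0.63), Gstm1 (-0.66) and Ugt1a9 (-3.70). It was lower than neomycin in 6 (background 2.80% lower, 1.60% higher): Gstt1 (-0.52), Gsta3 (-0.94), Gstm4 (-0.32), Gstt2 (-0.63), Gstp3 (-1.01) and Gstm6 (-0.91). The last count was 3 without any 1 of Ampicillin-IV 3, Ampicillin-PO 4, Neomycin-IV 4, Neomycin-PO 4 or Neomycin-PO 5. Gstt1, Gstt2 and Gstm4 are thus lower after ampicillin than after either drug, with adjusted p between 0.00465 and 0.0273.

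Vancomycin differed from neomycin in 13 genes, 12 of them lower and Gstm5 higher (0.39), where 11.1% of all tested genes were lower and 18.2% higher. Sult2b1 (-1.27), Gsta1 (-1.39), Gstp2 (-0.90) and Gstt2 (-0.51) held without any single library. With both scores as covariates none of the 13 was called, and without the 12 libraries Sult2b1, Ugt2b34, Sult1b1, Gstt2 and Gsta1 remained. The muscle score was 10.6 ± 1.31 (SD, n = 15) with vancomycin and 9.47 ± 0.982 (SD, n = 17) with neomycin. The count was 5 to 8 without any 1 of Vancomycin-IP 2, Vancomycin-IV 3, Vancomycin-PO 2, Vancomycin-PO 3, Neomycin-IV 3 or Neomycin-PO 1, 3 or 5, and 20 to 24 without Vancomycin-PO 6, Vancomycin-IV 1, Neomycin-PO 2 or Neomycin-PO 6. It was lower than metronidazole in Gsto2 alone (-0.43, background 2.40% lower, 5.24% higher). That count was 0 without Metronidazole-IP 2, Metronidazole-IV 1 or Vancomycin-IV 5, 2 or 3 without any 1 of 8 others (Metronidazole-PO 2, 4 and 5, Vancomycin-IP 4, Vancomycin-IV 1 and 4, Vancomycin-PO 1 and 6), and 6 or 7 without Metronidazole-IP 3 or Metronidazole-IV 3.

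The mix was lower than metronidazole in Gstm5 (-0.55), Gstz1 (-0.32), Gstt2 (-0.49), Gstm1 (-0.75) and Ugt1a9 (-3.99) and higher in Ugt1a1 (2.45) and Ugt1a7c (1.62), where 4.52% of tested genes were lower and 6.40% higher. With the Hox side as a factor Gstm5, Gstz1, Gstm1 and Ugt1a9 remained, and the count was 4 without Metronidazole-IP 4. With both scores as covariates all 7 genes remained. The mix and neomycin differed in none (0.954% in either direction), with 14 of 45 at an unadjusted p under 0.05 (12.9% of all tested genes). Up to 4 were called without 1 library (1 without Neomycin-PO 1 or 6, 2 without Neomycin-IP 1 or Neomycin-PO 2, 3 without Mix-IV 3 and 4 without Mix-IP 6). No gene of the 45 was called between routes, within any antibiotic or between the 3 PBS groups (0 called by limma in all 6 tests). Of all tested genes, 0.0878% were called between routes for neomycin and 0% in the other 5 tests. At an unadjusted p under 0.05 stood 3 of 45 for the mix (2.38% of all tested genes), 1 for vancomycin (6.60%), 1 for PBS (2.26%) and 0 for ampicillin (1.41%), metronidazole (0.913%) and neomycin (2.44%).

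The Ugt1a genes are read from 1 locus, where each has its own first exon and all share the remaining exons. Ugt1a9 had 0 to 812 TPM with PBS (listed at 0 in 4 of 15 libraries, median 99.9), 0 to 156 TPM with ampicillin (0 in 11 of 18, median 0) and 0 to 68.3 TPM with the mix (0 in 11 of 18, median 0). Metronidazole gave 0 to 626 TPM (0 in 2 of 14, median 88.0), neomycin 0 to 337 TPM (0 in 4 of 17, median 47.2) and vancomycin 0 to 125 TPM (0 in 3 of 15, median 13.4). All 18 mix libraries and 16 of 18 ampicillin libraries were below the PBS median. The fitted differences, which depend on the value added to each TPM where libraries are at 0, were -3.39 (0.995), adjusted p = 0.0219, for ampicillin and -3.69 (0.995), adjusted p = 0.0130, for the mix.

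Ugt1a1 had higher medians with ampicillin and the mix than with PBS: 36.9 TPM with PBS (2.43 to 375), 45.8 TPM with ampicillin (1.76 to 739) and 86.1 TPM with the mix (4.70 to 800.3). The medians were 23.2 TPM with vancomycin (3.69 to 124), 12.5 TPM with metronidazole (0.474 to 441) and 29.2 TPM with neomycin (7.02 to 646). No mean effect on it was called, with 1.02 (0.724), adjusted p = 0.383, for ampicillin and 1.94 (0.724), adjusted p = 0.0813, for the mix. With array weights Ugt1a1, Ugt1a6a, Ugt1a7c and Ugt2b5 were called higher after the mix. A Hox score below 3, where the Ugt1a1 median was 116 TPM against 17.2 TPM at or above it, was found in 15 of 18 mix, 8 of 18 ampicillin and 6 of 15 PBS libraries. Ugt1a6a had 41.1 TPM with PBS (10.4 to 271), 66.3 TPM with ampicillin (3.79 to 235) and 85.4 TPM with the mix (10.1 to 485), differences of 0.19 and 1.04 that were not called. The 7 Ugt1a genes summed had 17.3 to 1522 TPM and were called in no mean effect: -0.36 (adjusted p = 0.705) for ampicillin, 0.42 (0.715) for the mix and -1.39 (0.0607) for vancomycin. TPM corrects each gene for its own length, so this sum can still depend on how reads of the shared exons were divided.

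Other genes of the pathways were counted from lists. Calls on these and the lists below were not tested with both scores as covariates or without the 12 libraries. Of the 15 conjugation enzymes called after vancomycin over the routes, 1 kept its call in each of those fits. Whether the vancomycin calls on the lists would be kept was not tested. Of 18 genes of glutathione synthesis and turnover, ampicillin lowered Gpx2 (-1.27), the gut glutathione peroxidase, vancomycin raised Gpx3 (0.52), a secreted one, and the mix called none. Of 8 genes of UDP-glucuronate supply, vancomycin lowered Pgm2 (-0.66) and Nudt14 (-0.78), the mix raised the nucleotide-sugar transporter gene Slc35d2 (0.87), and ampicillin called none. Of 9 tested genes of sulfate donor supply, vancomycin lowered the sulfate transporter Slc26a2 (-0.94) and the transporter of activated sulfate Slc35b3 (-0.49) and raised Bpnt2 (0.23), and ampicillin and the mix called none. Of 6 exporters of conjugates, vancomycin raised Abcc1 (0.47), and ampicillin and the mix called none. In Vancomycin-IP Ggt5 (1.03) and Gpx3 (1.03) were higher and Chac2 (-0.72), Pgm2 (-1.47), Nudt14 (-1.43) and Slc26a2 (-1.64) lower. Over all tested genes the mean effects called 2.75% lower and 5.13% higher for ampicillin, 7.40% and 18.6% for vancomycin and 3.27% and 4.69% for the mix.

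Of 20 Nrf2 targets outside the 45, ampicillin lowered Nqo1 (-1.01), a quinone reductase, Cbr3 (-0.94) and Txn1 (-0.75), and vancomycin lowered Nqo1 (-0.93), Cbr3 (-0.92) and Osgin1 (-0.75) and raised Me1 (0.99), while the mix raised Srxn1 (0.65). These are 3 of 20 lower after ampicillin, 3 lower and 1 higher after vancomycin and 1 higher after the mix, beside the shares of all genes just given. Of 14 xenobiotic receptors and partners, Mafk, a small Maf partner of Nrf2, was higher after ampicillin (0.67), vancomycin (0.68), the mix (0.54) and neomycin (0.45). Vancomycin lowered Nfe2l2 (-0.81), the gene of Nrf2 itself, and the mix raised Keap1 (0.38), its inhibitor, and Rxra (0.53), with Keap1 also higher after neomycin (0.34). Whether these differences remain with both scores as covariates was not tested. Of 5 relatives of the microsomal enzymes, Ptges, a prostaglandin E synthase, was lower after ampicillin (-0.82), vancomycin (-0.68) and the mix (-1.12).

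The PAR bZIP factors Dbp, Tef and Hlf drive clock-timed detoxification genes in mouse liver and kidney, and Nfil3 opposes them at the same sites. Dbp was lower after ampicillin (-2.69), vancomycin (-2.16) and neomycin (-1.23), Tef after ampicillin (-1.20) and vancomycin (-0.99), and Nfil3 was higher after all 5 treatments (0.70 to 1.70). The clock time of collection is not given in the labels. Metronidazole called no gene of any list named here except Nfil3. Among the other marker lists, ampicillin raised Saa1 (1.60) of 12 surface colonocyte genes, vancomycin lowered Car1 (-2.21) and Muc3 (-1.0), and the mix lowered Aqp8 (-3.12). The mix lowered Spink4 (-1.93) of 10 goblet cell genes, and Tat (-0.88) of 5 tested liver markers was lower after vancomycin. None of the 8 B cell, 6 tested small intestine, 5 tested fat or 5 posterior Hox genes was called in a mean effect.

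Across libraries most of these genes moved opposite to the smooth muscle genes. With levels and score centred on group means, Pearson's r with the muscle score passed an adjusted permutation p of 0.05 for 40 of 45 genes over 97 libraries, of which 37 were negative. The smallest of these had an absolute r of 0.252, and 72.9% of all tested genes reached it, 32.2% negative and 40.7% positive; no test of this difference was made. The median r was -0.55 over the 45 and 0.07 over all tested genes. Gsto1 was the most negative, r = -0.81 (Spearman's rho = -0.83, each with p = 1e-05, the smallest that 100000 permutations can give, and adjusted p = 2.25e-05 over 90 tests). Its r was -0.80 without the 2 libraries farthest from the median score, -0.85 among libraries with a Hox score below 3 and -0.86 among those at or above it. Mgst3 had r = -0.74, rho = -0.76 and Gstt2 r = -0.54, rho = -0.51, both with p = 1e-05 for each.

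The 3 positive genes were Sult4a1 (r = 0.88, rho = 0.85), a sulfotransferase known from neurons, Gstm5 (r = 0.52, rho = 0.50) and Gstt1 (r = 0.29, rho = 0.24), with adjusted p of 2.25e-05, 2.25e-05 and 0.0199 for r. Gstz1 (r = 0.18, adjusted p = 0.137) and Gstm1 (r = -0.22, adjusted p = 0.0598) did not pass for r. Sult4a1 was positive on both sides of the Hox score (r = 0.90 below 3 and 0.96 at or above it). Gstm5 (0.80 and 0.19) and Gstt1 (0.71 and 0.05) passed below 3 alone (adjusted permutation p = 0.458 and 0.841 at or above it). Gstm1 had r = 0.14 below 3 and passed at or above it (r = -0.50, adjusted permutation p = 0.00532). Within the sides of the Hox score 33 genes passed below 3, 30 of them negative, and 34 at or above 3, 33 of them negative. All TPM values of a library share 1 total, and the part of this in the correlations was not tested.

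**Figure D4:**
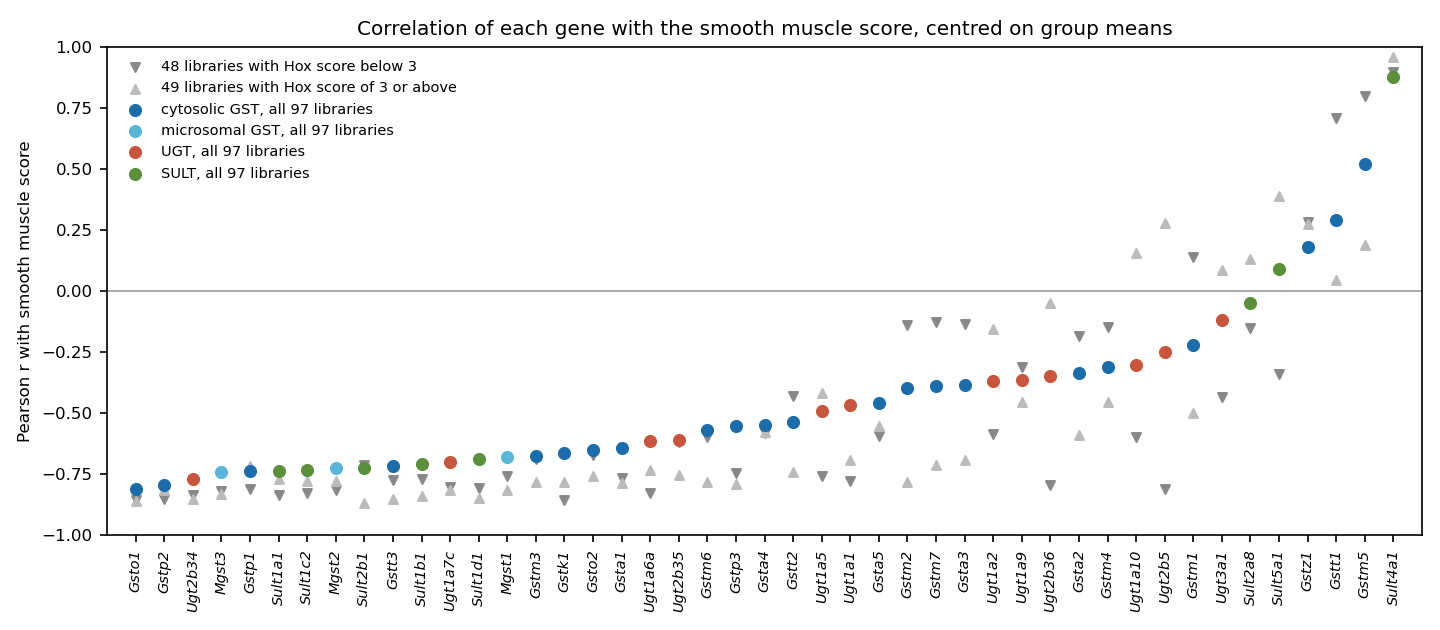
Pearson's r of each of the 45 genes with the smooth muscle score, levels and score centred on group means, over all 97 libraries (dots coloured by family) and within the 48 libraries with a posterior Hox score below 3 and the 49 at or above it (triangles). Most dots lie below 0, from Gsto1 at -0.81, and Sult4a1 lies highest at 0.88.

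Both sides of the posterior Hox score differed in several of these genes. Ugt2b5 had 0.219 to 42.2 TPM (median 13.98) in the 48 libraries below 3 and 0 to 1.32 TPM (median 0.147) in the 49 at or above it. Ugt1a1 had medians of 116 and 17.2 TPM and Ugt2b36 of 1.35 and 0.129 TPM, in the same direction. Gstm1 (79.7 and 149 TPM), Gstm2 (22.6 and 52.6 TPM), Gstp3 (1.57 and 6.04 TPM) and Gstt2 (22.1 and 35.5 TPM) had the higher median at or above 3. Over all 97 libraries, centred on group means, r with this score was -0.80 for Ugt2b5, -0.62 for Ugt1a1 and -0.68 for Ugt2b36. It was 0.69 for Gstm1, 0.61 for Gstm2, 0.69 for Gstp3 and 0.53 for Gstt2. These values include the difference between the sides. Within the sides, 1 gene passed in each: Ugt1a1 below 3 (r = -0.45, rho = -0.47, adjusted permutation p = 0.0247 for r over 180 tests) and Ugt2b36 at or above 3 (r = -0.44, rho = -0.41, adjusted permutation p = 0.0354 for r).

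**Figure D5:**
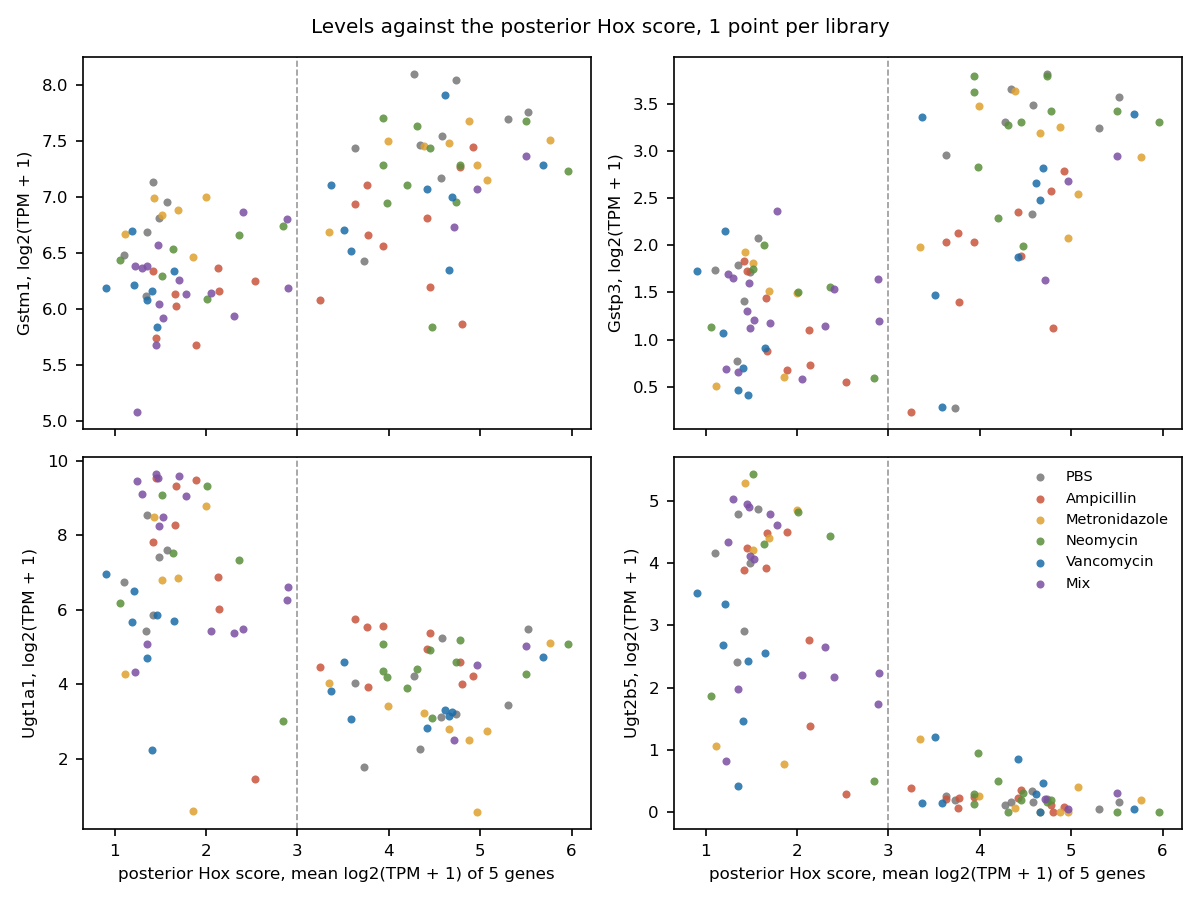
Levels of Gstm1, Gstp3, Ugt1a1 and Ugt2b5 on the log2(TPM + 1) scale against the posterior Hox score, with 1 point per library coloured by treatment and a dashed line at a score of 3. Ugt2b5 has medians of 13.98 TPM left of the line and 0.147 TPM right of it, and Gstm1 of 79.7 and 149 TPM.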

How the data were processed

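RNA from whole colon was sequenced in 97 libraries (poly(A) selection, 1000 ng of RNA, single-end reads of 75 cycles, per the labels' protocols). Per the submitters' processing notes, Salmon quantified the reads for GRCm39 after adapter removal (cutadapt 3.5, Trim Galore 0.6.2). The deposited values are TPM per gene, so the read depth of each library is unknown and no counting interval is given. Strand handling is not given in the sources used here.

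TPM was taken as log2(TPM + 1), genes without 1 TPM in at least 4 libraries were left out, and 1 limma model (3.58.1, R 4.3.3, trend and robust) over 18 groups gave all differences, with Benjamini-Hochberg adjustment over 17083 genes and a threshold of 0.05. Mean effects weight the 3 routes equally. The model was tested on simulated data. Correlations used permutation tests (scipy 1.17.1, 100000 permutations, two-sided) on values centred on group means. Named genes are the 12 with the smallest adjusted p in any comparison with PBS, the 3 with the highest mean TPM of each family, and the closest to the threshold where a comparison called none. The genes and the marker and pathway lists were chosen with earlier results of these data known, so counts over them are descriptions. Alternatives are given in the closing section. Whether same-numbered libraries deviate together was checked and they did not, which cannot exclude a pairing or batch that the numbers do not follow. The result of 1 marker list is not reported here.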

Additional observations from a re-analysis of the deposited data

Results flagged for a closer look

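Among 216 pairs of a named gene and a group, 12 held a value far from the rest of its group by Dixon's criterion. Chance meets this criterion in about 1 in 20 groups, so the count is near what chance gives. PBS-IP 3 was low in Gstt2 (32.4 TPM, others 49.7 to 52.6) and in Mgst1 (61.9 TPM, others 236.5 to 263). Vancomycin-PO 6 was high in Gstm1 (154.5 TPM, others 56.2 to 80.2) and in Gsta3 (16.7 TPM, others 3.196 to 4.19). Gstz1 was low in Neomycin-IP 3 (21.9 TPM, others 26.9 to 29.1) and high in PBS-IV 2 (33.2 TPM, others 24.9 to 27.0). Gsto2 was low in Neomycin-IP 5 (0.369 TPM, others 1.13 to 1.33) and high in Neomycin-PO 1 (3.06 TPM, others 0.402 to 1.08).

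Gstm3 was low in Ampicillin-IV 3 (0.664 TPM, others 6.06 to 12.9), Gstm6 in Metronidazole-PO 2 (2.65 TPM, others 9.28 to 16.2) and Ugt2b34 in PBS-IV 4 (9.89 TPM, others 199 to 381.6). Ugt1a9 had 64.0 TPM in Mix-PO 5 and was listed at 0 in the other 5 libraries of that group.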

How the results depend on the processing

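Of the values of named genes that were called, recomputed under another setting or without a library, 872 kept their call and direction, 167 no longer passed and 0 reversed. For counts under other settings or without a library, here and above, the share of all tested genes called is not given. Whether a change in such a count is shared by all tested genes was not tested. Leaving out 1 library at a time, the number of genes called was 8 to 15 for ampicillin over 3 routes, 5 to 23 for vancomycin, 4 to 12 for the mix, 0 to 14 in Vancomycin-IP, 0 to 4 in Mix-IP and 0 to 1 in Ampicillin-PO. It was 4 to 9 for ampicillin minus metronidazole, 3 to 9 for ampicillin minus neomycin, 0 to 7 for vancomycin minus metronidazole, 5 to 24 for vancomycin minus neomycin, 4 to 10 for the mix minus metronidazole, 0 to 4 for the mix minus neomycin and 12 to 26 in the F test, and 0 in every other comparison.

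With array weights in limma the counts over 3 routes were 22 for ampicillin, 34 for vancomycin, 20 for the mix and 1 for neomycin, with 4 of the 20 higher (Ugt1a1, Ugt1a6a, Ugt1a7c, Ugt2b5) and Sult4a1 higher after vancomycin. By route they were 16, 7, 1, 30, 17, 7, 20, 2 and 1 for Ampicillin-PO, Ampicillin-IP, Vancomycin-PO, Vancomycin-IP, Vancomycin-IV, Mix-PO, Mix-IP, Mix-IV and Neomycin-IP, of which 2 were higher in Vancomycin-IP, 5 in Mix-IP and 1 in Mix-PO. Between antibiotics they were 20 and 22 for ampicillin minus metronidazole and minus neomycin, 30 and 30 for vancomycin, 23 and 18 for the mix, and 42 in the F test, with 7 and 4 of those for the mix higher and Sult4a1 higher for ampicillin and vancomycin minus neomycin. Between routes they were 4 for the mix, 1 for neomycin, 1 for vancomycin and 2 for PBS.

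With the scores as covariates the counts were 1 in Ampicillin-IP, 1 in Ampicillin-PO, 3 in Mix-IP, 0 in Vancomycin-IP, 1 for vancomycin over 3 routes, 17 for ampicillin minus metronidazole, 13 for the mix minus metronidazole, 2 for vancomycin minus metronidazole and 0 for vancomycin minus neomycin. Without the 12 libraries that stood apart in the table they were 1 in Ampicillin-PO, 1 in Mix-IP, 5 for ampicillin, 3 for the mix, 1 for vancomycin, 0 for vancomycin minus metronidazole and 8 for vancomycin minus neomycin. Those fits hold fewer samples, and no count is given for Vancomycin-IP, which lost 3 of its 4 libraries.

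Settings by posterior Hox score were chosen after seeing the data, as were the comparisons between antibiotics and the sums over close copies. With the Hox side as a factor the counts were 1 in Ampicillin-PO, 4 for the mix, 4 for the mix minus metronidazole and 2 for vancomycin minus metronidazole. At or above 3 they were 0 in Vancomycin-IP, 2 for ampicillin, 2 for vancomycin, 0 for ampicillin minus metronidazole, 2 for ampicillin minus neomycin, 0 for vancomycin minus metronidazole and 1 for vancomycin minus neomycin. Below 3 they were 1 for ampicillin, 0 for vancomycin, 0 for the mix, 0 in the F test and 0 for each of ampicillin minus metronidazole, ampicillin minus neomycin, vancomycin minus metronidazole, vancomycin minus neomycin and the mix minus metronidazole. PBS-IP and Vancomycin-IP had 1 library each below 3, so no count is given for that comparison. The number of genes past the threshold with the Hox score was 1 on each side alone.

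Pseudocount 10 gave 1 in Ampicillin-PO, 1 for the mix minus neomycin and 2 for vancomycin minus metronidazole. Quantile normalization gave 1 in Ampicillin-PO, 1 in Mix-IP, 1 for neomycin and 2 for vancomycin minus metronidazole. Vancomycin-IP had 3 with no filter on low values and 21 in a fit of its 2 groups alone. The cause of these changes was not tested. Same-numbered libraries of different groups did not deviate together (median r -0.03 over 758 pairs, 318 of them over 0.1, against -0.04 for other pairs), so the numbers do not pair them. The replicate block gave 13 for ampicillin, 16 for vancomycin, 10 for the mix, 7 in Vancomycin-IP, 1 in Ampicillin-PO, 2 in Mix-IP and 2 for vancomycin minus metronidazole. TPM keeps no read depth, so the precision of low values such as those of Gsto2 and Ugt3a1 is unknown.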
